A study of Rattus norvegicus with 12 samples.

Results

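The interferon-induced antiviral effectors described here are 10 genes, namely Isg15, Mx1, Mx2, Oas1a, Rsad2, Slfn4, Ifit2, Ifit3, Usp18 and Ubd. They were selected on their higher signal in injured than in control cortex in these same arrays, so their injury differences are given as a description, with no test. All 10 were found among the 12206 named genes of the array, through 13 probes, since Rsad2, Ifit2 and Usp18 have 2 probes each. All 13 probes passed the filter on dim probes, which asked that all 3 arrays of 1 or more groups be well above background. Every one of the 13 passed it in the injured groups, and 6 of them were well above background on every control array too.

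The data were 12 single-colour arrays of RNA from the left cerebral cortex of Wistar rat pups, with 3 pups, each on its own array, in every one of 4 groups. In the Rice model of neonatal hypoxia-ischemia the left carotid artery of a 7-day-old pup was cut between ligatures, and after a recovery the pup breathed 8% oxygen for 1 h. The Rice + MCI-186 pups then received MCI-186 (edaravone, a free radical scavenger) at 9 mg/kg into the peritoneum, and the Rice + saline pups received 100 µl of saline, both repeated after 30 min. The Control + MCI-186 and Control + saline pups received 9 mg/kg MCI-186 or 100 µl saline without ligation or hypoxia. No sham operation and no second injection of controls are described in the sources used here, so injury, surgery and the repeated injection cannot be told apart. All groups are labelled as 2 weeks of age, and no time from insult to collection is given. The 4 slides held 1 group each, and slide and group cannot be told apart in any comparison. The p-values measure the spread between pups, pooled over the 4 groups.

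Interferons are secreted proteins that cells release on sensing viral or misplaced nucleic acid. Type I interferons bind a receptor whose kinases activate STAT proteins, and these join IRF9 to switch on a large set of genes through a shared DNA element. The products of that set block viral replication at many steps, and microglia, astrocytes, neurons and invading leukocytes of the brain can all express them. Among the 10 genes, Isg15 and Ubd (FAT10) are ubiquitin-like proteins that are attached to other proteins, and Usp18 removes Isg15 and dampens the interferon receptor. Mx1 and Mx2 are dynamin-like GTPases, Oas1a makes short adenylate chains that act in antiviral defence, and Rsad2 (viperin) is a radical SAM enzyme. Ifit2 and Ifit3 are tetratricopeptide repeat proteins, and Slfn4 belongs to the schlafen family, which in mouse is induced by interferon in myeloid cells.

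The genes lie on 8 rat chromosomes in the RefSeq annotation of the GRCr8 assembly. Ifit2 (chr1:241515735-241521799) and Ifit3 (chr1:241527326-241532469) are neighbours, and Mx1 (chr11:50269056-50294699) and Mx2 (chr11:50375101-50399373) share a chromosome. The others are Usp18 (chr4:156143770-156171292), Isg15 (chr5:172066369-172067656), Rsad2 (chr6:48774985-48788245), Slfn4 (chr10:68492135-68515674), Oas1a (chr12:41330423-41341130) and Ubd (chr20:1390734-1392685). Where in each gene the probes lie was not analysed here. The annotation gives Slfn3 as another name of Slfn4, Mx3 of Mx2 and Oas1g of Oas1a, and signal shared between such near copies cannot be separated on these probes.

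Promoters are shown because the shared DNA element is what these genes have in common in textbook accounts. RefSeq promoters of GRCr8, 250 bases before to 50 after the annotated start, were matched for 6 of the 10 genes, namely Mx1, Oas1a, Rsad2, Slfn4, Ifit3 and Ubd. They were searched on both strands for GAAANNGAA, a core bound by interferon regulatory factors that reads TTCNNTTTC on the other strand, and for TTCNNNGAA, a STAT motif that reads the same on both strands. The first was present in 3 of the 6 promoters, against 9.5% of 27457 promoters and 61% of 59 promoters of other interferon-induced genes. The 3 are printed 5′ to 3′ in the direction of the gene, with the matches to the interferon regulatory factor core in capitals.
Oas1a chr12:41330216-41330515, plus strand: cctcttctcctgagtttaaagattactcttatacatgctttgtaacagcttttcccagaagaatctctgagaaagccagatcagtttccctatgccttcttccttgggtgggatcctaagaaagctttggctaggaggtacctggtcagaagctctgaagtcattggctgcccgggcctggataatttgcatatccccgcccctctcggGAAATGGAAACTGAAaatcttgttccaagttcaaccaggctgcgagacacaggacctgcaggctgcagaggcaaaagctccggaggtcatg
Rsad2 chr6:48788071-48788370, minus strand: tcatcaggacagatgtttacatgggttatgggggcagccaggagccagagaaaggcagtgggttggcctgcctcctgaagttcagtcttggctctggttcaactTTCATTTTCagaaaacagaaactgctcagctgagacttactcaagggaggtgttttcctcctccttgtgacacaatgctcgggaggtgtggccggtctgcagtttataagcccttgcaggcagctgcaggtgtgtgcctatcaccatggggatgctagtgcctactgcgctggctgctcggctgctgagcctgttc
Ifit3 chr1:241527076-241527375, plus strand: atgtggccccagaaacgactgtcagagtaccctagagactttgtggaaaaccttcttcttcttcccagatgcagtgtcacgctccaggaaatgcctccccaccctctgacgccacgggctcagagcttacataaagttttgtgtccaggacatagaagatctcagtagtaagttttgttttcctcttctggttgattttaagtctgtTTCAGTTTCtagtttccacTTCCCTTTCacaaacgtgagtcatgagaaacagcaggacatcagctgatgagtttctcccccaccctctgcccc
Oas1a held 2 overlapping matches that begin 41 and 35 bases before the start, GAAATGGAA and GAAACTGAA. Rsad2 held 1 match on the reverse strand 146 bases before the start, and Ifit3 held 2 on the reverse strand, 43 and 24 bases before it. The STAT motif was found in 1 of the 6, Oas1a, as TTCCCAGAA 199 bases before the start, against 8.68% of all promoters and 22% of the 59 promoters of other interferon-induced genes. A match is a description of the letters in this window, and these windows do not show whether a factor bound there.

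The level of a probe is the log2 of its signal over the 75th percentile of its array, so 0 is the 75th percentile and each step of 1 is a 2-fold change. Levels are compared between pups for the same probe, not between probes. In injured cortex the level of every one of the 10 genes was many times that in control cortex, with either injection. Over the 10 genes (brightest probe of each) the median fitted difference of Rice minus control was 5.85 in MCI-186 pups (range 3.53 to 7.70) and 5.68 in saline pups (range 3.25 to 6.68), against medians of -0.08 and -0.09 over all named genes. These bulk values cannot tell more transcript per cell apart from more cells that hold it. At 13 of 13 probes all 3 Rice + MCI-186 pups lay above all 3 Control + MCI-186 pups, against 24.8% of all probes kept. In saline pups this held for 12 of 13 probes, against 22.4% of all probes. Since this contrast chose the genes, nothing is read from those counts.

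Control signal limits the size of these differences. In Control + MCI-186 pups Mx1, Slfn4, Ifit3 and Ubd were not well above background on any array, so their fitted differences are not exact, the 7.70 of Slfn4 included, and with these 4 at their lower bounds the median in MCI-186 pups was 5.57. Such a bound, written below as "at least", sets the injured mean against the detection limit of each control array (its dimmest probe well above background), or the probe's own signal where that was higher. It applies only to the background correction used here and leaves out the spread between pups. With another background correction (normexp with an offset of 50) the median was 4.41 in MCI-186 pups and 3.75 in saline pups. The log2 differences in MCI-186 pups were then 4.15 for Mx1, 4.89 for Slfn4, 2.85 for Ifit3 and 3.03 for Ubd. Each of these is smaller than the bound given for that gene below, so the bounds do not hold across background corrections.

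Isg15 had levels of 5.08, 4.23 and 5.42 in the Rice + MCI-186 pups and 4.92, 4.52 and 5.53 in the Rice + saline pups. In the controls it had -1.65, -2.04 and -1.83 with MCI-186 and -1.72, -1.59 and -1.77 with saline. Every injured pup lay above every control, and the groups given MCI-186 and saline overlapped on both sides. The Rice minus control difference was 6.75 ± 0.30 (SE, n = 3 against 3) in MCI-186 pups, or 108-fold, and 6.68 ± 0.30 in saline pups, or 103-fold. Isg15 was well above background on all 12 arrays, and normexp moved these differences only to 6.46 and 6.40.

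Ubd, the other ubiquitin-like gene, had levels of -0.75, -1.46 and 0.03 in Rice + MCI-186 pups and -0.17, -0.81 and 0.48 in Rice + saline pups. In the controls it had -6.52, -6.80 and -7.04 with MCI-186 and -6.31, -5.02 and -6.05 with saline. Injured and control pups did not overlap, and Ubd was well above background on 0 of 3 control arrays with MCI-186 and 1 of 3 with saline. It was at least 27.8-fold brighter in Rice + MCI-186 than in Control + MCI-186 pups, and the difference in saline pups was 5.63 ± 0.44.

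Usp18 was read by 2 probes. At the brighter one (A_44_P284200, probe 2) the levels were 1.78, 0.83 and 2.05 in Rice + MCI-186 pups and 1.59, 0.90 and 2.08 in Rice + saline pups. The controls had -4.38, -4.41 and -4.22 with MCI-186 and -4.53, -3.97 and -4.45 with saline. The difference was 5.89 ± 0.34 in MCI-186 pups and 5.84 ± 0.34 in saline pups, with no overlap. The dimmer probe 1 (A_44_P157229) differed by 4.77 ± 0.41 in MCI-186 pups and was at least 25.0-fold brighter with injury in saline pups, so both probes went the same way.

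Of the Mx GTPases, Mx1 had levels of 0.98, -0.06 and 0.83 in Rice + MCI-186 pups and 0.85, 0.25 and 1.14 in Rice + saline pups. Its control levels were -5.42, -7.03 and -6.01 with MCI-186, where no array was well above background, and -4.76, -5.48 and -4.94 with saline, where 2 of 3 were. Mx1 was at least 68.9-fold brighter with injury in MCI-186 pups, and 5.81 ± 0.41 higher on the log2 scale in saline pups. Mx2 was measured well above background on all 12 arrays. It had 2.15, 0.97 and 2.05 in Rice + MCI-186 pups and 1.71, 1.26 and 1.94 in Rice + saline pups, against -1.83, -1.69 and -1.89 in Control + MCI-186 and -2.19, -2.14 and -2.07 in Control + saline pups. Injured pups lay above controls without overlap, by 3.53 ± 0.27 in MCI-186 pups (11.6-fold) and 3.77 ± 0.27 in saline pups (13.6-fold).

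Oas1a, the oligoadenylate synthetase, had levels of 4.66, 3.67 and 4.97 in Rice + MCI-186 pups and 4.33, 3.94 and 4.81 in Rice + saline pups. The controls had -1.10, -1.56 and -1.21 with MCI-186 and -1.31, -1.16 and -1.64 with saline. Injured and control pups were far apart and the injections overlapped, with a difference of 5.73 ± 0.32 in both arms, 52.9-fold with MCI-186 and 53.0-fold with saline. Its signal was well above background on every array.

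Slfn4 had levels of 1.66, 0.40 and 1.56 in Rice + MCI-186 pups and 1.30, 0.18 and 1.48 in Rice + saline pups. In the controls it had -5.71, -7.60 and -6.17 with MCI-186, none well above background, and -5.90, -4.69 and -6.24 with saline, 1 of 3 well above it. It was at least 106-fold brighter in Rice + MCI-186 than in Control + MCI-186 pups, and its difference in saline pups was 6.60 ± 0.58. Injured and control pups did not overlap in either arm, and the Rice + MCI-186 and Rice + saline pups did.

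The Ifit genes, whose products bind RNA and curb translation, were read by 3 probes. Ifit3 had levels of -0.80, -1.70 and -0.88 in Rice + MCI-186 pups and -0.76, -2.11 and -0.56 in Rice + saline pups, against -5.54, -7.61 and -7.64 in Control + MCI-186 and -6.59, -4.05 and -5.61 in Control + saline pups. It was at least 21.1-fold brighter with injury in MCI-186 pups, and the difference in saline pups was 4.27 ± 0.72, where the controls spread over more than 2 log2 units. Ifit2 at its brighter probe 2 (A_44_P696994) had 1.41, 0.90 and 1.65 in Rice + MCI-186 pups and 1.37, 0.64 and 1.91 in Rice + saline pups, against -2.46, -2.42 and -2.34 in Control + MCI-186 and -2.52, -2.44 and -2.20 in Control + saline pups. No injured pup overlapped a control, and the difference was 3.73 ± 0.28 in MCI-186 pups and 3.69 ± 0.28 in saline pups. The dimmer Ifit2 probe 1 (A_44_P410016), not well above background in any control, was at least 5.69-fold brighter with injury in MCI-186 pups and at least 6.97-fold in saline pups.

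Rsad2 was read by 2 probes. At its brighter probe 1 (A_44_P196172) the levels were 3.48, 3.15 and 3.37 in Rice + MCI-186 pups and 3.29, 2.87 and 3.81 in Rice + saline pups. The controls had -2.04, -2.10 and -2.14 with MCI-186 and 0.54, 0.23 and -0.55 with saline, and all 12 arrays were well above background. Injured pups lay above controls in both arms, and among controls the 3 MCI-186 pups lay below the 3 saline pups. The Rice minus control difference was 5.42 ± 0.28 in MCI-186 pups (42.9-fold) and 3.25 ± 0.28 in saline pups (9.54-fold).

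At Rsad2 probe 2 (A_44_P370190), much closer to background, the levels were -2.81, -3.05 and -2.95 in Rice + MCI-186 pups and -2.96, -3.41 and -2.67 in Rice + saline pups. The controls had -7.20, -7.16 and -7.64 with MCI-186, none well above background, and -1.44, -4.53 and -5.32 with saline, all 3 well above it. Control + saline replicate 1 thus lay above every injured pup at this probe, which is the 1 overlap among the 13 probes. The difference was 0.75 ± 0.75 in saline pups and turned to -0.03 without Control + saline replicate 3, while in MCI-186 pups it was at least 6-fold.

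**Figure D1:**
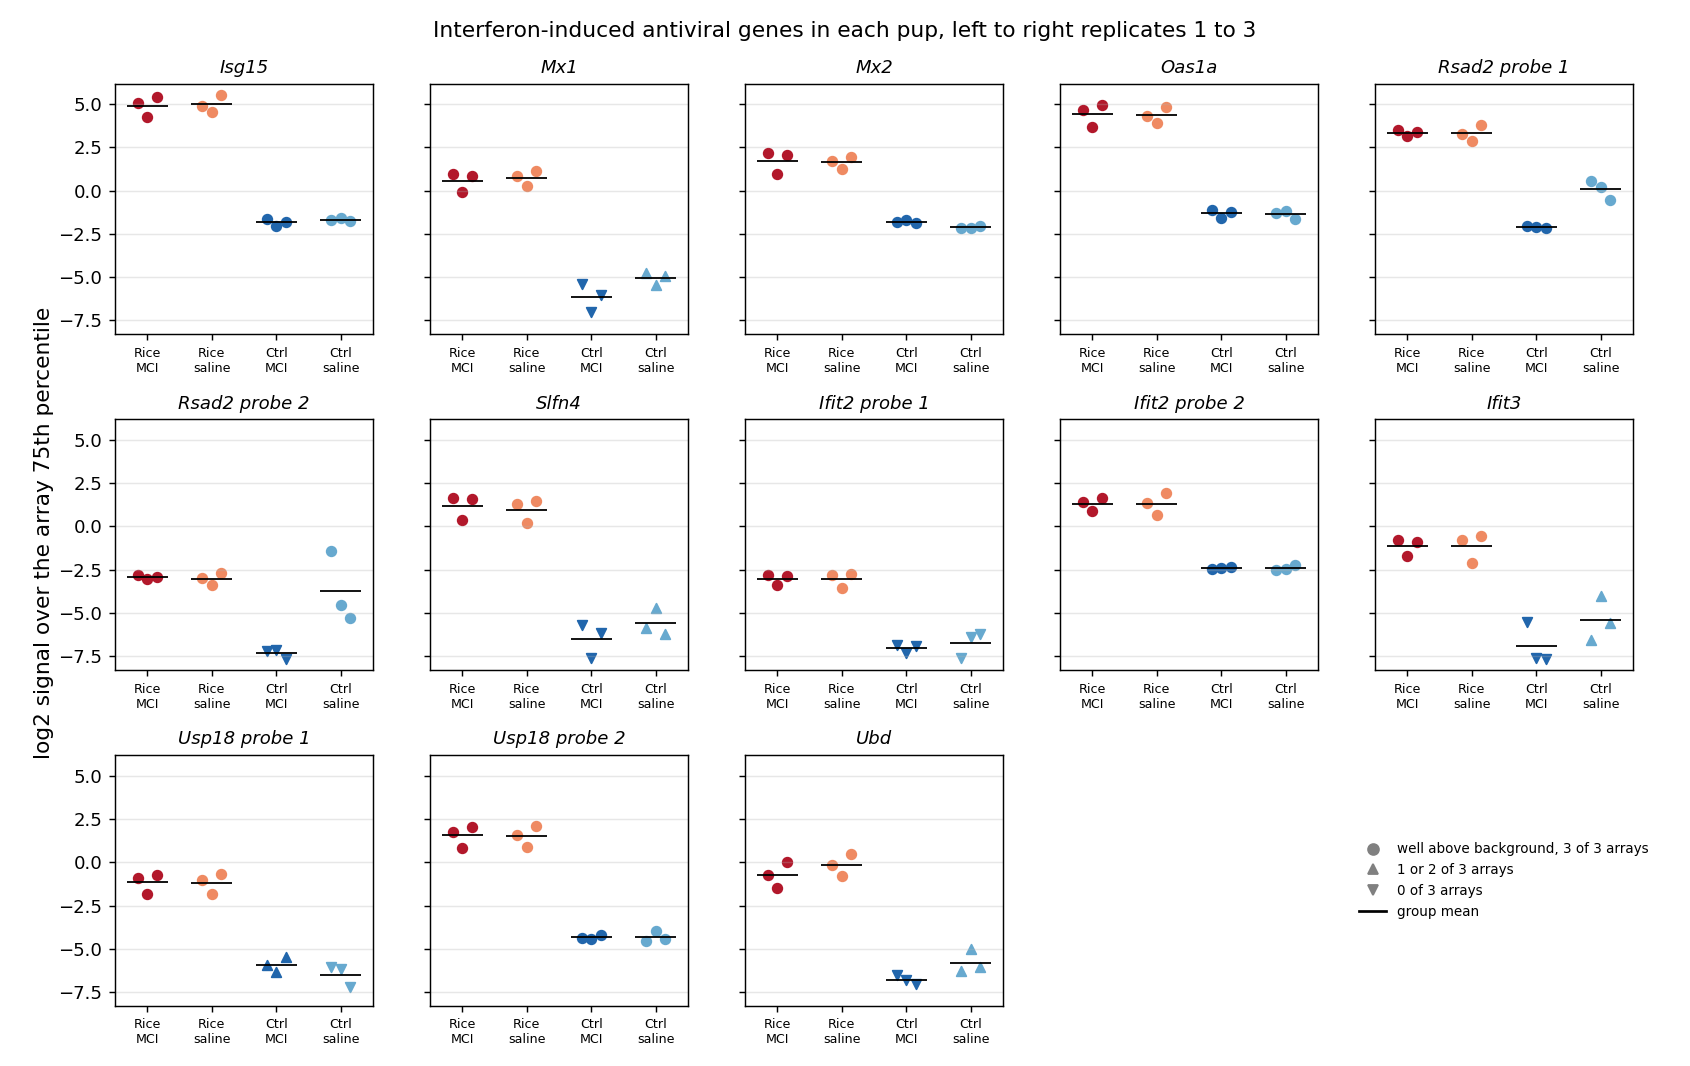
Level of each of the 13 probes in each pup (y axis, log2 of the signal over the array's 75th percentile), with the 3 pups of each group as points, the bar as the group mean and the marker shape as how many of the 3 arrays were well above background. Injured pups stand above controls in every panel but that of Rsad2 probe 2, where Control + saline replicate 1 at -1.44 is higher than every injured pup.

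MCI-186 was compared with saline in injured cortex to ask whether the scavenger went with another level of these genes. No difference between these groups was called at any of the 13 probes. With limma's moderated test and Benjamini-Hochberg adjustment over all probes, 0 of 13 were called at the threshold of 0.05, each with an adjusted p of 1, against 0% of 28513 probes in the array as a whole, where 727 had an unadjusted p under 0.05. None of the 13 had an unadjusted p under 0.05, and at each the Rice + MCI-186 and Rice + saline pups overlapped. The share of all probes with such an overlap was not counted, so nothing is read from it. The differences ran from -0.56 for Ubd to 0.22 for Slfn4, with a median of 0.02 over the genes. These pups do not show that the levels were alike. The 95% interval was -0.75 to 0.59 for Isg15, -0.63 to 0.79 for Oas1a, -0.61 to 0.62 for Rsad2 probe 1 and -1.54 to 0.42 for Ubd, and over the 13 probes the intervals reached from -1.59 to 1.75.

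In control cortex 1 of the 13 probes was called between MCI-186 and saline, against 0.126% of 28516 probes (36, of which 9 were higher and 27 lower with MCI-186). It was Rsad2 probe 1, which averaged -2.09 ± 0.05 in Control + MCI-186 pups and 0.07 ± 0.56 in Control + saline pups (SD, n = 3 each). Its difference was -2.16 ± 0.28 (SE; 95% interval -2.78 to -1.55), 4.48-fold lower with MCI-186, and limma's adjusted p was 0.0154. By p it ranked 19 among all probes of that comparison. The call rested on few arrays. Over 20 other settings the difference ran from -2.48 to -1.89 and limma's adjusted p from 0.00534 to 0.0835, with 14 of 20 still called. In the 5 settings with fewer arrays that missed the threshold, limma's adjusted p was 0.0753, 0.0659 and 0.0623 without Control + MCI-186 replicate 1, 2 or 3, 0.0701 without Control + saline replicate 2, and 0.0835 when only the control arrays were fitted.

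Rsad2 probe 2 went the same way in controls, with a fitted difference of -3.57 ± 0.75 and a limma adjusted p of 0.14. Control + MCI-186 signal there was not well above background, and the saline mean lay 3.39-fold above the detection limits of those arrays. That mean was raised by Control + saline replicate 1, at -1.44 against -4.53 and -5.32 in the other pups, and no bound was computed without it. Without Control + saline replicate 1 the fitted difference of probe 2 was -2.41 and limma's adjusted p was 0.0144. With normexp the difference was -1.12. Cmpk2, which encodes a mitochondrial nucleotide kinase and lies beside Rsad2 in mammals, differed by -0.17 in controls (limma adjusted p = 0.93) and by 1.61 and 1.62 with injury in MCI-186 and saline pups.

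The other control comparisons did not pass the test. All 3 Control + MCI-186 pups lay below all 3 Control + saline pups at 3 of 13 probes, both of Rsad2 and that of Ubd, against 11.5% of all probes. Mx2 alone lay above without overlap, by 0.33 (limma adjusted p = 0.843). The share of all probes that lay above was not counted, so nothing is read from that. Mx1 (limma adjusted p = 0.472) and Ifit3 (adjusted p = 0.619) were not called, and their control groups overlapped. Their Control + MCI-186 signal was not well above background on any array. The saline mean lay 1.38-fold above the detection limits of those arrays for Mx1 and 1.08-fold for Ifit3. These folds leave out the spread between pups, so no least difference is read from them. With normexp the fitted differences were -0.21 for Mx1 and -0.31 for Ifit3. No fold is given for Ubd (adjusted p = 0.578) and Slfn4 (adjusted p = 0.781), whose Control + MCI-186 signal was not well above background either. Isg15 differed by -0.15 and Oas1a by 0.08. Of all 13 probes, an unadjusted p under 0.05 was reached by 4, both of Rsad2 and those of Mx1 and Ubd, against 8.52% of all probes.

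The difference between the injury effects of the arms was itself tested, and 0 of 13 probes were called by limma, against 0.0175% of 28513 probes (5). For Rsad2 probe 1 the effect was 2.17 ± 0.39 larger in MCI-186 pups (95% interval 1.30 to 3.04, limma adjusted p = 0.202). For probe 2 the adjusted p was 0.759, and no size is given, because its Control + MCI-186 signal was not well above background. These were the 2 of 13 probes with an unadjusted p under 0.05, against 4.14% of all probes. For Isg15, Mx2, Oas1a, Ifit2 probe 2 and Usp18 probe 2, which were well above background on all 12 arrays, the difference between arms ran from -0.24 to 0.07, with intervals that held 0. These comparisons share the control arrays, so the Rsad2 values in controls and between arms are not separate evidence.

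**Figure D2:**
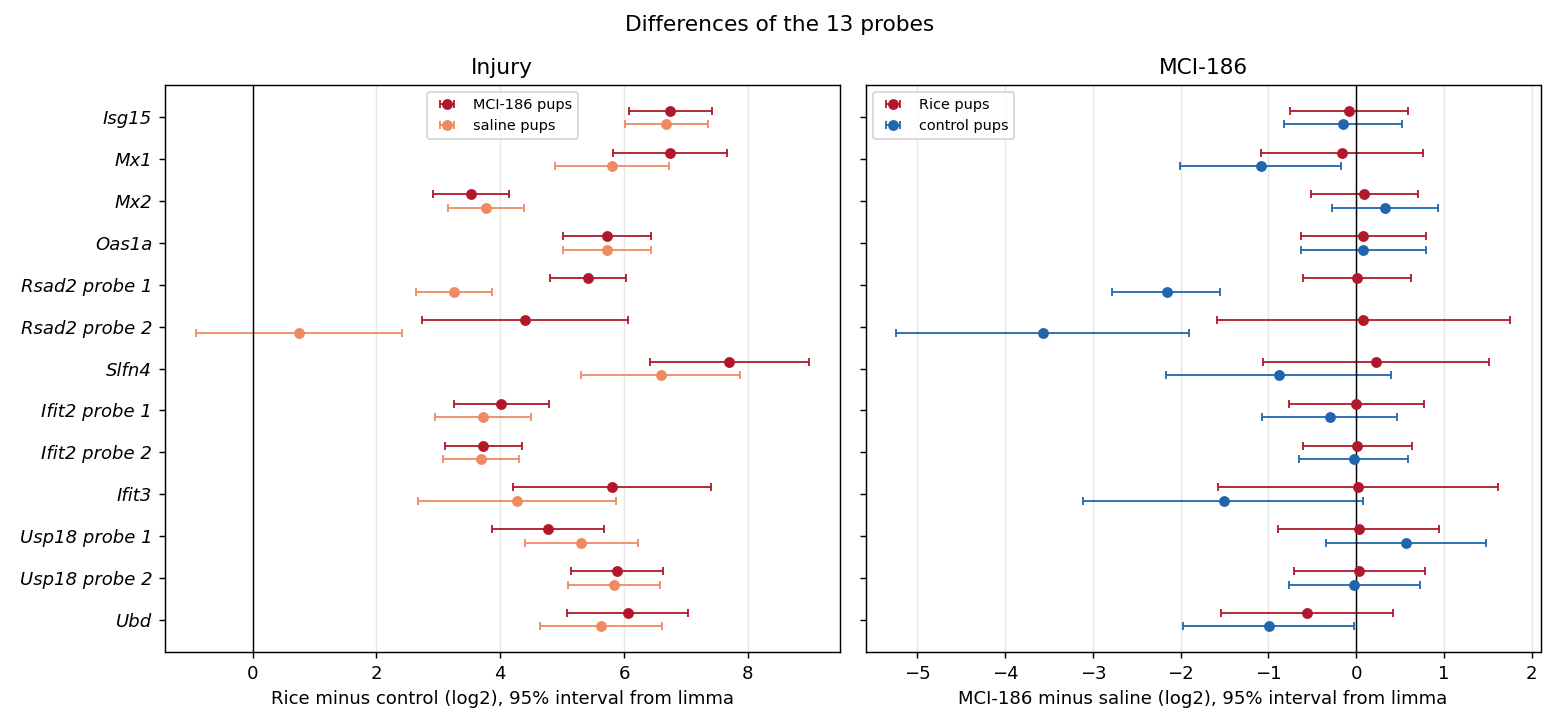
Differences of the 13 probes on the log2 scale (x axis) with 95% intervals from limma, for Rice minus control pups on the left and MCI-186 minus saline pups on the right. Fitted injury differences lie between 3.25 and 7.70 apart from Rsad2 probe 2 in saline pups at 0.75, those of probes not well above background in a control group are not exact, and the MCI-186 differences in Rice pups lie between -0.56 and 0.22.

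The 10 genes varied together between injured pups. Replicate 2 was the lowest Rice + MCI-186 pup at 13 of 13 probes, and replicate 2 was likewise the lowest Rice + saline pup at 13 of 13, though the numbers do not pair the pups. Replicate 3 was the highest Rice + saline pup at 13 of 13, and in Rice + MCI-186 replicate 1 was highest at 7 and replicate 3 at 6. Over the 10 genes (brightest probe of each) the mean deviation from the group mean was 0.24, -0.63 and 0.38 in Rice + MCI-186 pups. It was 0.09, -0.59 and 0.51 in Rice + saline pups. The mean deviation of all probes lay between -0.02 and 0.02 on these 6 arrays. The range within a group over the 13 probes had a median of 1.12 in Rice + MCI-186 and 1.01 in Rice + saline pups, which is far smaller than the injury differences.

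Some cell type markers varied between the same pups. The markers of microglia and macrophages deviated by 0.28, -0.48 and 0.21 in Rice + MCI-186 pups and -0.05, -0.19 and 0.24 in Rice + saline pups. Single markers differed in this. In Rice + saline pups Itgam was lowest in replicate 2 (levels -0.28, -1.02 and 0.78), but Aif1 (5.43, 5.47 and 5.89) was not, and Siglec5 (-1.77, -1.32 and -1.58) was highest there. Markers of monocytes and border macrophages deviated by 0.13, -0.31 and 0.19 in Rice + MCI-186 pups. In Rice + saline pups they deviated by -0.39, 0.0 and 0.39, lowest in replicate 1. T cell markers deviated on average by 0.12, -0.40 and 0.28 in Rice + MCI-186 pups and by 0.03, -0.36 and 0.33 in Rice + saline pups. Cd8a and Cd8b were lowest in replicate 2 of both groups, but other T cell genes were not. In Rice + MCI-186 pups Cd3g was highest in replicate 2 (levels -4.08, -3.52 and -3.74), and Cd3d was not lowest there (-2.81, -2.54 and -2.53). In Rice + saline pups Cd4 was highest in replicate 2 (-3.16, -2.75 and -2.96). The means of the microglia and T cell lists were thus lowest in the replicate 2 pups that were lowest for the 10 genes. A low mean in replicate 2 was not particular to immune cell lists. The mean of 4 cerebellum markers was also lowest there, at 0.20, -0.44 and 0.24 in Rice + MCI-186 pups. In Rice + saline pups it was 0.39, -0.36 and -0.04. Cbln1 was lowest in replicate 2 of both groups (-1.01, -3.15 and -1.16 in Rice + MCI-186 pups), but not every marker was. Gabra6, not well above background, was highest there in Rice + MCI-186 pups (-6.16, -5.88 and -6.63). Zic1 was not lowest there in Rice + saline pups (-3.61, -3.00 and -2.23). Cortical neuron markers deviated by -0.07, 0.34 and -0.28 in Rice + MCI-186 pups and by 0.36, -0.06 and -0.30 in Rice + saline pups. Neutrophil markers deviated by -0.23, 0.14 and 0.09 in Rice + MCI-186 pups and by -0.54, -1.04 and 1.58 in Rice + saline pups. Oligodendrocyte markers deviated by -0.27, 0.85 and -0.58 in Rice + MCI-186 pups and by 0.51, -0.37 and -0.14 in Rice + saline pups. For neurons, neutrophils and oligodendrocytes, replicate 2 did not stand at the same end of both groups. The part of these cells in the spread was not tested.

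**Figure D3:**
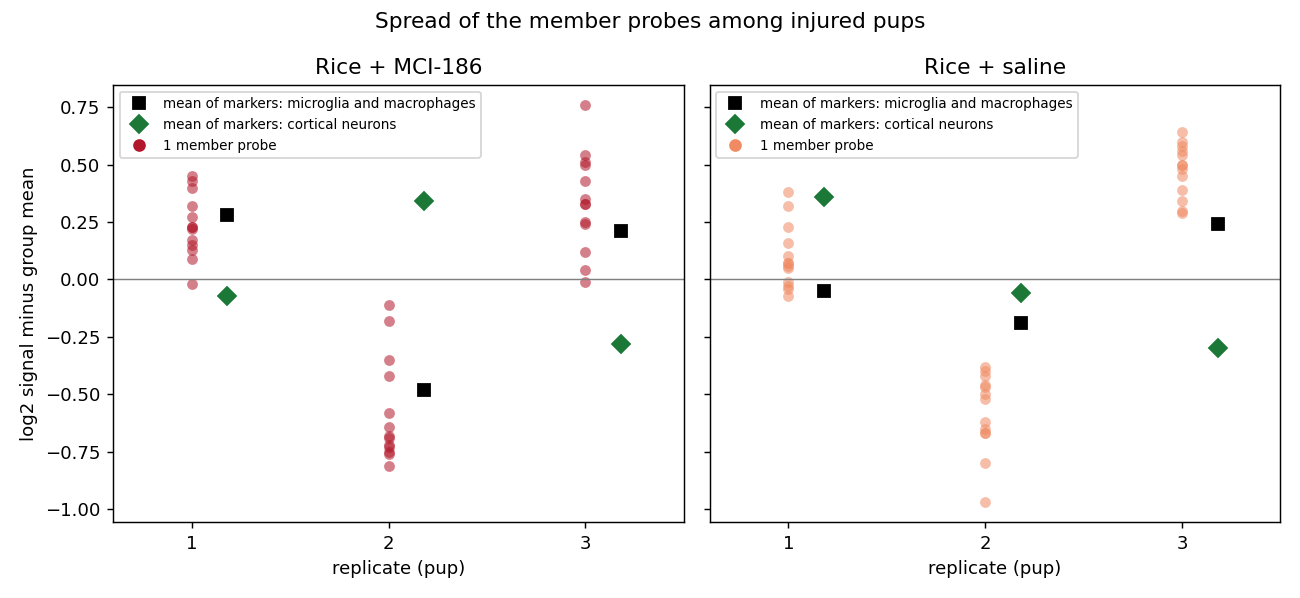
Deviation of each of the 13 probes from its group mean (y axis, log2) in each injured pup (x axis, replicate), with the mean deviation of the markers of microglia and macrophages as squares and of cortical neurons as diamonds. Replicate 2 is the lowest pup of its group at every probe in both panels, with means of -0.63 in Rice + MCI-186 and -0.59 in Rice + saline.

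Over the 6 injured arrays, each less its group mean, the Pearson correlation of the 45 pairs of genes ran from 0.719 to 0.991 with a median of 0.924. The genes share the RNA sample and scaling of each array and the arrays of a group share a slide, and with replicate 2 of each group left out the median over the remaining 4 arrays was 0.745 and the lowest 0.167. Usp18 was most like the mean of the other genes (r = 0.996) and Rsad2 least (r = 0.851). Of 9006 named genes ranked by their correlation with the mean of the 10, 5.95% exceeded 0.9, so a high value is common on these arrays. The 10 nearest were Crlf2 (0.998), Oasl (0.997), Irf7, Lta4h, Ctsd, Zc3hav1 and Rpl35a (each 0.996), Tm9sf1 (0.994), Bcl2a1 and P2ry6 (each 0.993). Oasl, an oligoadenylate synthetase-like protein that was not well above background in any control, was at least 6.19-fold brighter with injury in MCI-186 pups and at least 7.94-fold in saline pups. Lta4h, a leukotriene hydrolase, was as close with differences of 0.06 in MCI-186 pups and 0.15 in saline pups.

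Other genes of the interferon pathway were described from lists chosen with earlier results of these data known, using the brightest probe of each gene. Of 74 other interferon-induced genes 40 were on the array and 38 were measured. With injury 34 were called higher by limma in MCI-186 pups, 1 lower and 3 neither, and 35 higher, 1 lower and 2 neither in saline pups. The background for this list and those below was 25.6% of named genes called higher and 31.5% lower in MCI-186 pups. In saline pups it was 24.9% higher and 30.5% lower. The median difference of the list was 2.58 in MCI-186 pups and 2.60 in saline pups.

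The members with the lowest p were Oasl2, an oligoadenylate synthetase-like gene, Parp9, an ADP-ribosyltransferase of antiviral signalling, Rtp4, Ifi44, Irgm, an interferon-inducible GTPase, and Lgals3bp. Their differences in MCI-186 pups were 4.89 ± 0.27 for Oasl2, 3.44 for Parp9, 5.09 for Rtp4, 4.10 for Ifi44, 4.01 for Irgm and 4.20 for Lgals3bp. In saline pups they were 4.90 ± 0.27 for Oasl2, 3.40 for Parp9, 5.08 for Rtp4, 3.72 for Ifi44, 3.99 for Irgm and 4.21 for Lgals3bp. Their limma adjusted p were from 2.12e-06 to 4.14e-06 in MCI-186 pups and from 2.91e-06 to 4.36e-06 in saline pups. Ly6e and Usb1 passed in neither arm, and Tdrd7 differed by 0.18 in MCI-186 pups, which missed the threshold, and by 0.28 in saline pups. Ifit1 and Parp12 were not well above background on any array.

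The interferons were not well above background on most arrays. Of 5 on the array, Ifnb1, Ifna4, Ifna5, Ifnk and Ifng, none was kept by the filter. Ifna5 and Ifng were well above background on 0 of 12 arrays, Ifnb1 on 2 Control + MCI-186 arrays, Ifna4 on 1 Control + saline array and Ifnk on 1 Rice + MCI-186 array. Ifnb1 reached -2.64 in Control + MCI-186 replicate 2 and Ifnk -3.40 in Rice + MCI-186 replicate 3. No level of interferon RNA is drawn from this, because no interferon was well above background on all arrays of a group.

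Of the receptors and their kinases, 3 of 5 rose in both arms, against 25.6% of named genes in MCI-186 pups and 24.9% in saline pups. The list had medians of 0.41 in MCI-186 pups and 0.51 in saline pups. The 3 that rose were Il10rb, a chain of the interferon lambda and interleukin-10 receptors, Ifngr1, a chain of the interferon gamma receptor, and the kinase Jak2. In MCI-186 pups Il10rb differed by 1.61, Ifngr1 by 0.99 and Jak2 by 0.41, and in saline pups Il10rb differed by 1.54, Ifngr1 by 0.94 and Jak2 by 0.51. Ifnar1, a chain of the type I receptor, differed at its brighter probe by -0.11 in MCI-186 pups and -0.20 in saline pups and did not pass. The dimmer Ifnar1 probe passed as lower in saline pups, at -0.34 (limma adjusted p = 0.0332). In MCI-186 pups it missed the threshold, at -0.30 (limma adjusted p = 0.0504).

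Of 9 interferon transcription factors measured, 7 rose and 1 fell in MCI-186 pups (median 2.15), and 6 rose and 1 fell in saline pups (median 2.02). Irf7 had the largest difference of them, with levels of 3.54 ± 0.63 in Rice + MCI-186 and 3.41 ± 0.63 in Rice + saline pups, against -2.93 ± 0.26 in Control + MCI-186 and -2.37 ± 0.39 in Control + saline pups (SD, n = 3 each). Its difference was 6.47 ± 0.37 in MCI-186 pups and 5.78 ± 0.37 in saline pups (SE). Irf9 and Stat2, parts of the factor that binds the interferon element, differed by 2.63 for Irf9 and 2.15 for Stat2 in MCI-186 pups, and by 2.47 for Irf9 and 2.02 for Stat2 in saline pups. Irf1 differed by 2.77 in MCI-186 pups and 2.72 in saline pups. Irf3, which is activated by phosphorylation, did not pass in either arm.

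Nucleic acid sensors and adaptors rose in 8 of 11 cases in each arm, with medians of 1.83 in MCI-186 pups and 1.60 in saline pups. They included Dhx58, a regulator of the cytosolic RNA sensors, Ifih1, one of those sensors, the endosomal RNA receptors Tlr7 and Tlr3, and Sting1, the adaptor of cytosolic DNA sensing. In MCI-186 pups Dhx58 differed by 4.01, Ifih1 by 2.20, Tlr7 by 3.25, Tlr3 by 2.74 and Sting1 by 2.02. In saline pups Dhx58 differed by 4.14, Ifih1 by 2.19, Tlr7 by 3.05, Tlr3 by 3.31 and Sting1 by 2.21. Tbk1, a kinase downstream of several of these sensors, differed at its brighter probe by 0.13 in MCI-186 pups and -0.03 in saline pups and did not pass. The dimmer Tbk1 probe passed in MCI-186 pups, at 0.63 (limma adjusted p = 0.0109). It did not pass in saline pups, at 0.29 (limma adjusted p = 0.184).

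Of 7 genes that conjugate Isg15 or FAT10 to proteins or bind them, 3 rose and 1 fell in each arm, with medians of 0.08 in MCI-186 pups and 0.05 in saline pups. Over all named genes 25.6% rose and 31.5% fell in MCI-186 pups, and 24.9% rose and 30.5% fell in saline pups. Nothing is read from the counts of so short a list. Those that rose were Ube2l6, the conjugating enzyme of Isg15, Trim25, a ligase for it, and Uba6, an activating enzyme of FAT10. In MCI-186 pups Ube2l6 differed by 3.09, Trim25 by 2.53 and Uba6 by 1.21, and in saline pups Ube2l6 differed by 2.63, Trim25 by 2.33 and Uba6 by 1.18. Nub1, which links FAT10 to the proteasome, fell by 0.40 in MCI-186 pups and 0.51 in saline pups.

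Of 10 feedback inhibitors 5 rose and 1 fell in each arm, with medians of 0.50 in MCI-186 pups and 0.36 in saline pups. Over all named genes 25.6% rose and 31.5% fell in MCI-186 pups, and 24.9% rose and 30.5% fell in saline pups. The inhibitors include phosphatases of the interferon kinases and STATs and the Socs proteins, which block the kinases. In MCI-186 pups Ptpn6 differed by 2.99, Socs1 by 1.58 and Ptpn2 by 0.62, and in saline pups Ptpn6 differed by 2.92, Socs1 by 1.36 and Ptpn2 by 0.57. Socs2 fell by 0.92 in MCI-186 pups and 0.96 in saline pups.

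Of the 79 genes of these lists together, limma called 0 between MCI-186 and saline in injured pups, 0 in controls and 0 for the difference between arms. An unadjusted p under 0.05 was reached by 0 of them in injured pups, by 6 in controls (7.59%) and by 2 for the difference between arms (2.53%). Over all probes the share was 2.55% in injured pups, 8.52% in controls and 4.14% for the difference between arms, so nothing is read from these counts.

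**Figure D4:**
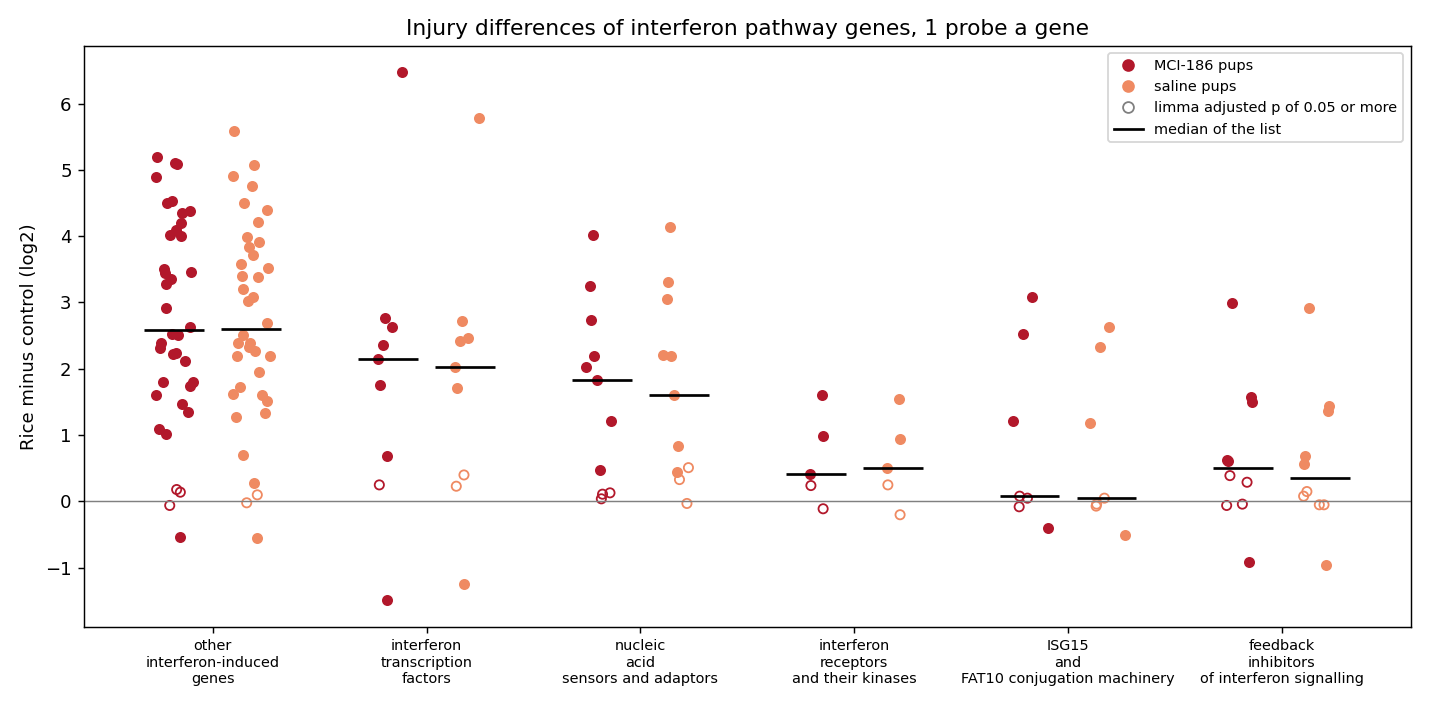
Rice minus control difference (y axis, log2) of every measured gene of 6 interferon pathway lists (x axis) in MCI-186 and saline pups, 1 probe a gene, with filled points called by limma and bars at the medians. The medians are 2.58 and 2.60 for the other interferon-induced genes and 0.08 and 0.05 for the conjugation machinery, in MCI-186 and saline pups.

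The injured cortex also differed in several lists of cell type markers, and these values stand beside all of the injury differences above. The background of their counts was 25.6% of named genes called higher and 31.5% lower in MCI-186 pups. In saline pups it was 24.9% higher and 30.5% lower. Of 11 microglia and macrophage markers 10 were higher in each arm, and their summed signal (in units of the 75th percentile) ran from 195 to 343 in Rice + MCI-186 and from 234 to 324 in Rice + saline pups, against 58.8 to 62.5 in Control + MCI-186 and 53.4 to 62.2 in Control + saline pups. All 5 measured T cell markers were higher in each arm, with sums from 0.755 to 1.44 in Rice + MCI-186 and 0.734 to 1.14 in Rice + saline pups, against 0.172 to 0.197 in Control + MCI-186 and 0.150 to 0.310 in Control + saline pups, though Cd3e was not well above background on any array. Of the 5, Cd3d and Cd3g differed least, and Cd8a, Cd8b and Cd4 made up most of the rise. Cd3d differed by 0.56 and Cd3g by 1.07 in MCI-186 pups, and in saline pups Cd3d differed by 0.57 and Cd3g by 1.33. Cd2, a T cell marker that the filter left out, was well above background on 0 of 6 injured arrays, 1 Control + MCI-186 array and 2 Control + saline arrays. Of 5 markers of monocytes and border macrophages 5 were higher in MCI-186 pups and 4 in saline pups, with medians of 1.05 in MCI-186 pups and 1.00 in saline pups. Of 6 astrocyte markers 5 were higher and 1 lower in MCI-186 pups, and 4 higher and 1 lower in saline pups, led by Gfap, an intermediate filament of reactive astrocytes, at 4.98 in MCI-186 pups and 4.52 in saline pups. Of 5 oligodendrocyte markers 5 were lower in MCI-186 pups (median -1.87) and 1 in saline pups (median -0.62), and limma called 0 of the 5 for the difference between arms, where 4 had an unadjusted p under 0.05. Of 4 neutrophil markers 1 was higher in MCI-186 pups, a share near that of all named genes, and 3 in saline pups. The 1 measured natural killer cell marker was called in neither arm, and Klrb1c, Gzmb and Gzma were not well above background on any array. Of 8 cortical neuron markers 5 were lower in each arm, with sums from 41.3 to 62.3 in Rice + MCI-186 and 40.0 to 66.4 in Rice + saline pups, against 72.3 to 75.1 in Control + MCI-186 and 71.8 to 81.5 in Control + saline pups. Cortical neuron markers were measured in every group of the labelled cortex. The part of these cell types in the injury differences was not tested.

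Technical measures differed between arrays, and most in Control + MCI-186 replicates 1 and 2. These had the lowest shares of spots well above background, 66.6% and 65.1%, and the highest detection limits, -5.33 on each. The limits ran from -5.90 to -5.76 in Control + saline, and Control + MCI-186 replicate 3 had 69.7% and -5.90. The part of this in the control comparisons was not tested. From 65.1% to 73.7% of the 43379 non-control spots of an array were well above background, and the 75th percentile signal ran from 920.4 to 1257.6. Arrays of a group correlated at 0.982 to 0.995. Precision is limited by the 12 arrays.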

How the data were processed

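The 10 genes and all lists were chosen with earlier results of these data known. The scanner files give, per the file headers, spot intensity that Agilent Feature Extraction 9.5.3.1 had subtracted for background. A second deposited file gives log2 values. Per array they correlated at 0.998 to 1.0 with the recomputed values less each probe's median, so direction and scale are those of the recomputed values, with probes centred. Its column medians lay between -0.12 and 0.12, and how the authors made it is not stated in the labels. The table served as an alternative.

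Each signal was divided by the 75th percentile of the non-control spots of its array, with a floor of 0.005 of that percentile (75986 values), before log2. Outlier spots were dropped (193 missing values), as were controls, and spots of a probe were averaged. Of 41012 probes 28518 were kept. Probes were named through RefSeq accessions (15184 probes, 12206 symbols), and the others stayed unnamed. limma 3.58.1 in R 4.3.3 fitted 4 group means to 12 arrays, with 8 residual and 2.53 prior degrees of freedom, and p-values were adjusted over all probes of a contrast. The script was tested on simulated data first. Files were read in Python 3.11.15. Named genes were the 10, up to 6 genes of each list with the lowest p of injury in saline pups, and the 10 genes most correlated with the mean of the 10. Irf3, Tbk1, Ifnar1, Ly6e, Usb1, Tdrd7, Cmpk2 and the genes of the cell type lists were named as examples after their values were seen. A few genes of the lists are not reported here.

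Alternatives were normexp, quantile normalization, the value table, no filter, a filter on all 12 arrays, a floor of 0.02, a fit of only the groups compared, the replicate number as a block and leaving out each pup. The deposited files hold no mean signal, so normexp used the median signal.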

Additional observations from a re-analysis of the deposited data

How the results depend on the processing

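The injury differences of the 13 probes kept their direction in 505 of 506 alternative values. The exception was Rsad2 probe 2 in saline pups, which ran from -0.03 without Control + saline replicate 3 to 1.91 without replicate 1. With normexp the median difference of the 10 genes was 4.41 in MCI-186 pups and 3.75 in saline pups, and with the filter on all 12 arrays, which leaves out the dimmer genes, it was 4.75 in saline pups. The count of probes called between MCI-186 and saline in controls, 36 as reported, was 13 with normexp, 18 with the filter on all 12 arrays, 19 with the replicate block, and 17 to 54 when 1 pup was left out. The 1 of 13 probes called there was 0 when only the groups compared were fitted, 0 with the replicate block and 0 to 2 without 1 pup. In injured pups the count of all probes, 0 as reported, was 1 with no filter and 0 to 1 without 1 pup. For the difference between arms the count, 5 as reported, was 2 with normexp, 8 with quantile normalization, 3 with the filter on all 12 arrays, 3 with the replicate block and 2 to 19 without 1 pup. The counts of other interferon-induced genes called higher stayed within 1.5 times their reported values, from 28 to 35. Same-numbered pups of different groups correlated at -0.285 to 0.544 over 18 pairs, with 2 pairs over 0.1, so the numbers do not pair the pups. With the replicate block limma's adjusted p of Rsad2 probe 1 in controls was 0.058. The causes of these moves were not tested. The slide could not be fitted as a block, because each of the 4 slides held 1 group. Signal over background limits the dimmer probes most, and with 3 pups a group the 95% intervals of MCI-186 against saline in injured pups had half-widths of 0.61 to 1.67.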
